A study of Mus musculus with 54 samples.

Results

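The genes described here are 40 interferon-stimulated genes, a set named by symbol from what is known of the interferon response. The set was chosen with earlier results of these data known. For a gene with several probe sets, the one with the highest mean over the arrays was kept. The 40 genes were followed in the mouse cell line Ba/F3-gp130 and in 3 lines derived from it. At the gene level, 35 of the 40 members had a probe set carrying 1 symbol, among 19938 genes so measured. Isg15, Gbp2, Igtp and Ifi47 share their gene-level probe set with other symbols, and Ifi44 had none under its symbol. These 5 were read from the exon-level values, where all 40 members were measured.

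Interferons are secreted proteins that cells make when they sense foreign or misplaced nucleic acid. Type I interferons act through JAK kinases on a complex that holds STAT2 and IRF9 and binds the interferon-stimulated response element (ISRE), while interferon-gamma acts on genes with a gamma-activated site (GAS). IL-6 family cytokines signal through gp130 and JAK kinases to STAT3, which binds sites like the GAS.

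Ba/F3 is a pro-B cell line of mouse origin. The Ba/F3-gp130 cells carry the receptor subunit gp130 and grow on Hyper-IL-6, in which IL-6 is fused to the soluble IL-6 receptor so that gp130 alone suffices for signalling. CIR-1, CIR-2 and CIR-3 are 3 versions of a Cargo Internalization Receptor, a synthetic receptor meant to take up a GFP-labelled perfluorocarbon emulsion (GFP-PFC) that is visible by fluorine magnetic resonance imaging. The question put to the arrays was how far the constructs, and cargo binding, alter the cells. All groups were grown with 10 ng/ml Hyper-IL-6, washed, and kept for 3 h without serum before the treatment. The parental cells are untransfected Ba/F3-gp130. Parental, CIR-1, CIR-2 and CIR-3 cells were each profiled unstimulated and after 1 h with 50 µl/ml GFP-PFC. Parental cells were also profiled after 1 h with 100 ng/ml Hyper-IL-6. Each of these 9 groups had 3 arrays, 27 in all, numbered 1, 3 and 5 in unstimulated groups and 2, 4 and 6 in treated groups. Whether a group's 3 arrays stem from separate cultures is not stated in the labels, so p-values measure only the spread between arrays. They also do not state whether a CIR line is 1 clone or a pool, and each construct is represented by 1 line. A difference between a CIR line and parental cells therefore cannot be told apart from a difference between lines.

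Values are the deposited gene-level signals, taken as log2, and a difference of 1 is a doubling. Array medians lay between 7.52 and 7.65, no array duplicated another, and arrays of a group correlated at 0.993 to 0.999. In the unstimulated and GFP-PFC groups the arrays numbered 1 and 2 stood apart from the others in a shared direction that held 42.4% of the within-group variance, the parental unstimulated array 1 most of all. The Hyper-IL-6 array 2 lay on the other side, with the arrays numbered 3 to 6 of those groups. Main calls lost or gained without the arrays numbered 1 and 2 are given beside the results. Of 17 pro-B markers, 7 were above background, among them Cd79a, Cd79b and Ptprc, and Pax5 only just, at 7.24. Ebf1, Rag1, Rag2, Vpreb1, Il7r and 5 others were not. Of 7 T cell markers 3 were above background too, as were 3 of 6 fibroblast markers. Here background is the 95th percentile of the mean signal of 1027 olfactory receptor genes, 7.22 on the log2 scale.

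Promoter sequences are shown first because the members are known as targets of the ISRE. RefSeq (GRCm38.p6) gave 250 bases before to 50 bases after the start of 30 of the 40 members. The ISRE core, GAAA and GAAA with any 2 bases between them, searched on both strands, was in the promoter of 15 of these 30 members (50.0%) and in that of 3.99% of 27025 genes. With any 3 bases between them the pair was in 6 members (20.0%), against 3.17% of genes. The GAS core TTCNNNGAA, which reads the same on both strands, was in 6 members (20.0%), against 9.55% of genes. A match describes the letters in this window and is not a measured binding site. Promoters are printed 5′ to 3′ on the gene's strand, with ISRE core matches on either strand in capitals, for 4 members with small p-values in the test among lines (Cxcl10, Oas1a, Stat2, Ddx58) and for Irgm1, added after its response to Hyper-IL-6 was seen. Only members with an ISRE match were taken from that test, so Psmb9 and Tap1, whose promoters held none, and Oas2 are not printed although their p-values were as small or smaller than some of the 4. In Oas1a a pair of ISRE matches overlaps, and its GAS core is in capitals too. The pair of Irgm1 matches overlaps as well. The 2 Irf9 promoters in the table held none of these letters.
Cxcl10, chr5:92348840-92349139, minus strand: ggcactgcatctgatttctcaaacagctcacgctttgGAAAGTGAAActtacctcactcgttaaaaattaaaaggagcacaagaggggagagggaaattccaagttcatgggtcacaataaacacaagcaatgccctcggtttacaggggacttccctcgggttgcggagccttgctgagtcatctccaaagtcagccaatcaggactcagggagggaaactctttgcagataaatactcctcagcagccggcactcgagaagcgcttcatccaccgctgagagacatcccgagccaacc
Oas1a, chr5:120907476-120907775, minus strand: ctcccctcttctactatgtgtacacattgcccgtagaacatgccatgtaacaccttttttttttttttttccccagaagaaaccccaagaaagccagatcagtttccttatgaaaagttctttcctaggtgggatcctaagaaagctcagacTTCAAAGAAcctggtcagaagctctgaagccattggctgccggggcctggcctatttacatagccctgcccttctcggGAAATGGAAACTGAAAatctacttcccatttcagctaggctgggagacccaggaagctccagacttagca
Stat2, chr10:128270248-128270547, plus strand: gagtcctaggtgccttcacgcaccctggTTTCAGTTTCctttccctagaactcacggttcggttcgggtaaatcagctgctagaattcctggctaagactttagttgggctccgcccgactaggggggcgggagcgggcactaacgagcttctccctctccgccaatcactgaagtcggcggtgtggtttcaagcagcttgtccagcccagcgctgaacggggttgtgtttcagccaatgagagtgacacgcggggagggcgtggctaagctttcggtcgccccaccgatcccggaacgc
Ddx58, chr4:40239776-40240075, minus strand: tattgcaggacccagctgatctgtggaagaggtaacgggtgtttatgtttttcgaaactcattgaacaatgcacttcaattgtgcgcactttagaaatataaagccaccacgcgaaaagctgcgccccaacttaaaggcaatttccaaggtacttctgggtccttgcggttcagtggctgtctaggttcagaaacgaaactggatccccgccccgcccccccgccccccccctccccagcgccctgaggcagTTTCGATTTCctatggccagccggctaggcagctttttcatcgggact
Irgm1, chr11:48871371-48871670, minus strand: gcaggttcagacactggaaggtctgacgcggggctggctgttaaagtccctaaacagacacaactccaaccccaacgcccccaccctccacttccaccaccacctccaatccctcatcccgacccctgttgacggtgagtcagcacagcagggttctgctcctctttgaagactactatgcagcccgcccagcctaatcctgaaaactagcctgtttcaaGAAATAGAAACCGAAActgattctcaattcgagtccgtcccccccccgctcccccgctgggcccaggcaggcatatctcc
Measured from the gene's start, the match began 213 bases before it in Cxcl10 and 222 bases before it in Stat2. The matches lay 20 and 14 bases before the start in Oas1a and 30 and 24 bases before it in Irgm1. In Ddx58 the match began at base 3 of the gene.

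Without any added interferon, most members carried signal, and so did most genes. All 19938 genes included 12501 with a mean above background, a share near that of the members. Of the 35 members, 24 had a mean above background. All 4 transcription factors and regulators were above it: Irf9 and Stat2, the partners in the ISRE-binding complex, Irf7, a factor for interferon genes, and Nlrc5, the transactivator of MHC class I genes. Among nucleic acid sensors, Ddx58 (RIG-I), Dhx58 (LGP2) and Zbp1 were above it and Ifih1 (MDA5) was not. Of the ISG15 system, the ligase Trim25 was above and the deconjugase Usp18, at 7.19, was just below.

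The antigen processing genes Tap1, the peptide transporter, and Psmb8 and Psmb9, subunits of the immunoproteasome, were above background in every group. So were the 5 oligoadenylate synthetase family members Oas1a, Oas2, Oas3, Oasl1 and Oasl2, and Bst2 (tetherin), by their means over all arrays. Mx1 and Mx2, antiviral dynamin-like GTPases, Rsad2 (viperin) and Cmpk2 were below it. Of the IFIT and other small effectors, Ifit2, Ifi35, Samd9l and Parp14 were above, and Ifit1, Ifit3, Rtp4 and Xaf1 below. Among the immunity-related and guanylate-binding GTPases, Irgm1 and Gbp3 were above and Iigp1 was below. The members at the edge were Oasl2 at 7.25 and Gbp3 at 7.28 above, Usp18 at 7.19 and Xaf1 at 7.08 below.

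**Figure D1:**
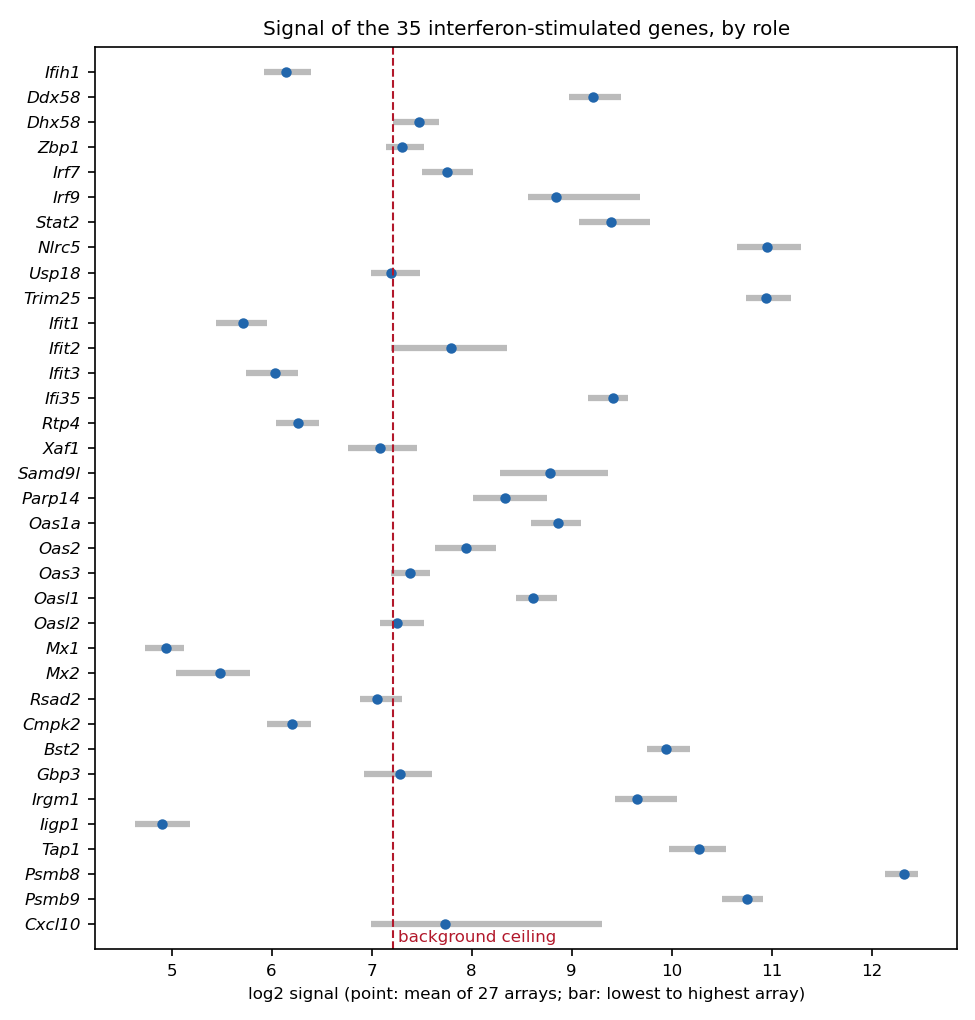
Mean log2 signal of each of the 35 members over all arrays, arranged by role. A bar runs from the lowest to the highest array, and a line marks the background ceiling of 7.22. Cxcl10 has the widest bar, from 6.99 to 9.3.

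Most members kept nearly the same level in all groups. The range of the 9 group means exceeded 0.5 in 5 of 35 members: Cxcl10 (1.59), Irf9 (0.90), Ifit2 (0.55), Irgm1 (0.51) and Oas2 (0.51). Cxcl10 encodes a chemokine for activated T cells, and its mean was above background in 7 of the 9 groups.

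**Figure D2:**
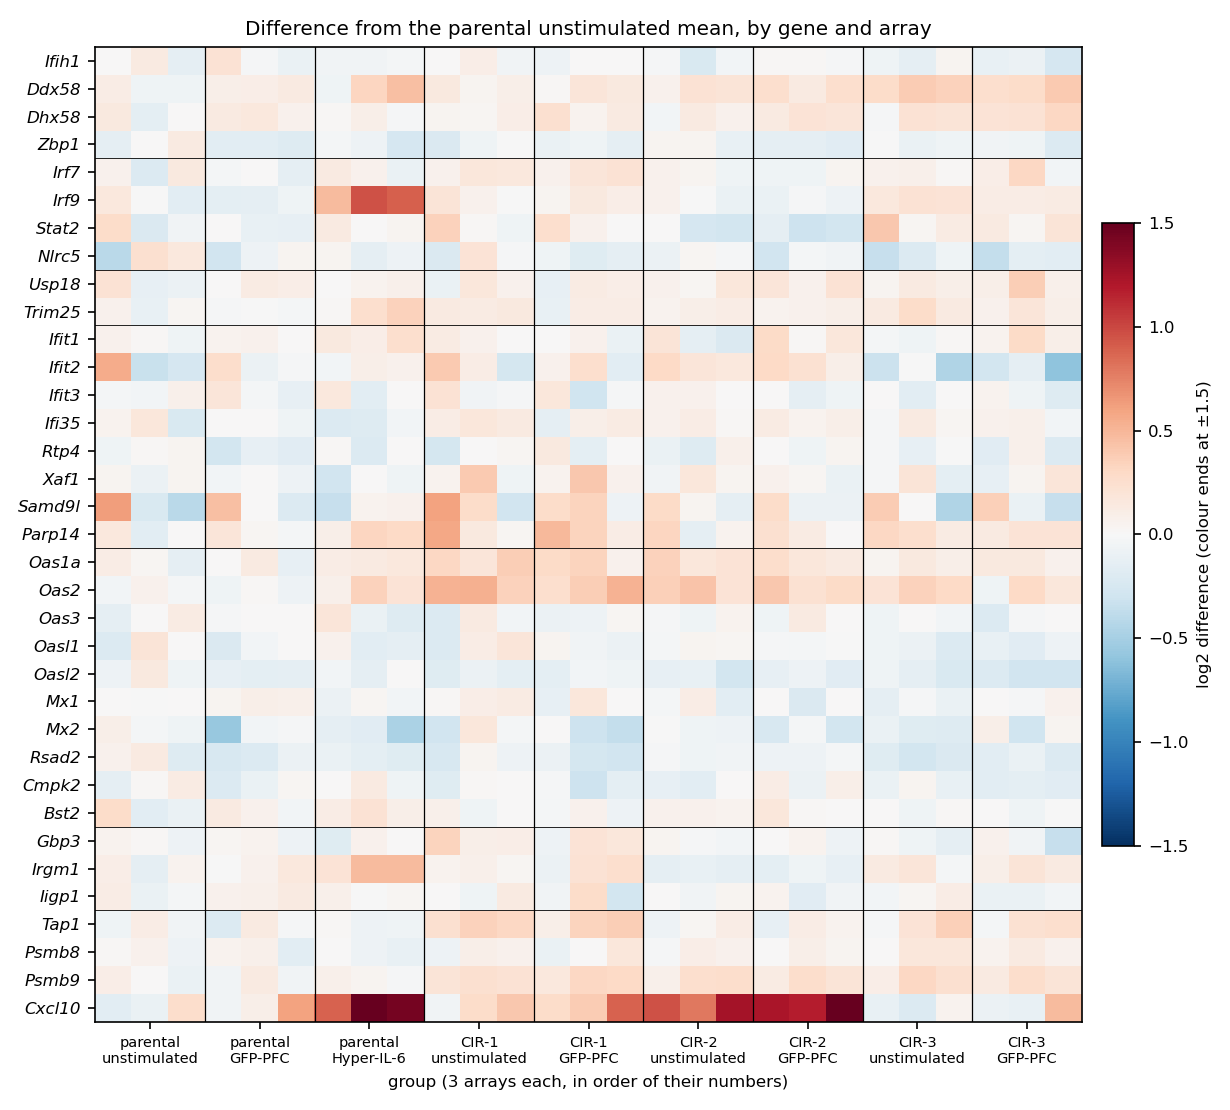
Log2 signal of each of the 35 members in each of the 27 arrays as the difference from that member's mean in the parental unstimulated group. Arrays are ordered by group. The stronger colours fall in the Cxcl10 row, higher in CIR-2 and Hyper-IL-6 arrays, and in the Irf9 row, higher in Hyper-IL-6 arrays.

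In parental cells 3 members rose within 1 h of Hyper-IL-6: Irf9, Cxcl10 and Irgm1. No member fell. The 3 made up 8.57% of the 35 members, and 0.777% of all genes passed the same test, 0.737% higher and 0.0401% lower (limma's moderated test, Benjamini-Hochberg adjusted p under 0.05 over 19938 genes). The median difference of the members was 0.01, and that of all genes was -0.01, so the middle of the set did not shift. Of the 35, 6 had an unadjusted p under 0.05, as did 6.66% of all genes.

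Irf9, the DNA-binding partner of STAT2, read 8.88, 8.71 and 8.56 in the unstimulated parental arrays and 9.20, 9.68 and 9.62 after Hyper-IL-6. Every Hyper-IL-6 array was above every other parental array. The difference was 0.78 (SE 0.093), a 1.72-fold rise, with limma's adjusted p = 1.62e-05. It was 0.69 to 0.94 when any 1 of the 6 arrays was left out, and its exon-level probe sets were higher in 10 of 11.

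Cxcl10 read 7.04, 7.10 and 7.46 unstimulated and 8.09, 8.97 and 8.63 after Hyper-IL-6. Here too the groups did not overlap, and the unstimulated values straddled background. The difference was 1.36 (SE 0.24), a 2.57-fold rise, with limma's adjusted p = 0.0027, and all 4 of its exon-level probe sets were higher.

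Irgm1, a GTPase of membrane remodelling and autophagy, read 9.68, 9.44 and 9.63 unstimulated and 9.78, 10.05 and 10.05 after Hyper-IL-6. The groups did not overlap, though their nearest arrays lay close together. The difference was 0.38 (SE 0.086), a 1.30-fold rise, with limma's adjusted p = 0.0305. This call was lost without the parental unstimulated array 3 or 5 or the Hyper-IL-6 array 4 or 6, with values of 0.31 to 0.47 and an adjusted p of up to 0.31. It was also lost with the arrays centred on their medians and in the exon-level values.

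Ddx58, the cytosolic RNA sensor, was higher by 0.24 and did not pass (limma's adjusted p = 0.51). Its arrays read 9.15, 8.98 and 8.98 unstimulated and 8.97, 9.36 and 9.49 after Hyper-IL-6, so the array numbered 2 lay among the unstimulated ones. All 20 of its exon-level probe sets were higher. Without the arrays numbered 1 and 2 from every group, 10 members passed, 7 higher and 3 lower, while 3673 of all genes passed against 155 with them. Those higher were Irf9 (1.02), Cxcl10 (1.52), Irgm1 (0.52), Ddx58 (0.44), Parp14 (0.39), Trim25 (0.33) and Bst2 (0.29), and those lower were Nlrc5 (-0.31), Oasl1 (-0.24) and Zbp1 (-0.23). Without the Hyper-IL-6 array 2 alone, 5 members passed, all higher. In a fit to the 2 compared groups alone no member passed, and no gene-level call of Irf9 or Cxcl10 was kept there.

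Genes of the wider pathway were read from lists in the same fit. Of 6 early gp130 target genes, 5 rose, among them Socs3 (3.06), Pim1 (2.28), Cish (2.07) and Junb (1.46). Socs3, the feedback inhibitor of gp130, went from a mean of 9.78 to 12.84. Irf1, a factor with a known GAS-driven response, went from 9.44 to 10.96, a difference of 1.52 (limma's adjusted p = 1.23e-07), and was the only 1 of 8 interferon transcription factors outside the set to pass. Socs1 rose by 0.75 and Cd274, which encodes PD-L1, by 1.55. Of 68 further interferon-stimulated genes 2 rose, and of 17 genes of nucleic acid sensing 1 did, Cgas (0.57). None of 15 interferon ligands and none of 9 receptors and kinases passed by limma, with 1 of each list at an unadjusted p under 0.05.

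Against GFP-PFC in the same parental cells, Hyper-IL-6 gave 2 called members, Irf9 (0.90, limma's adjusted p = 2.25e-06) and Cxcl10 (1.15, 0.0218), where 0.512% of all genes passed. The Cxcl10 call was lost without the GFP-PFC array 2 or 4 or the Hyper-IL-6 array 4 or 6, with values of 0.94 to 1.38 and an adjusted p of up to 0.30. It was also lost without the arrays numbered 1 and 2 (1.25, 0.0517) and in the fit to the compared groups alone. This comparison shares its Hyper-IL-6 arrays with the one above.

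**Figure D3:**
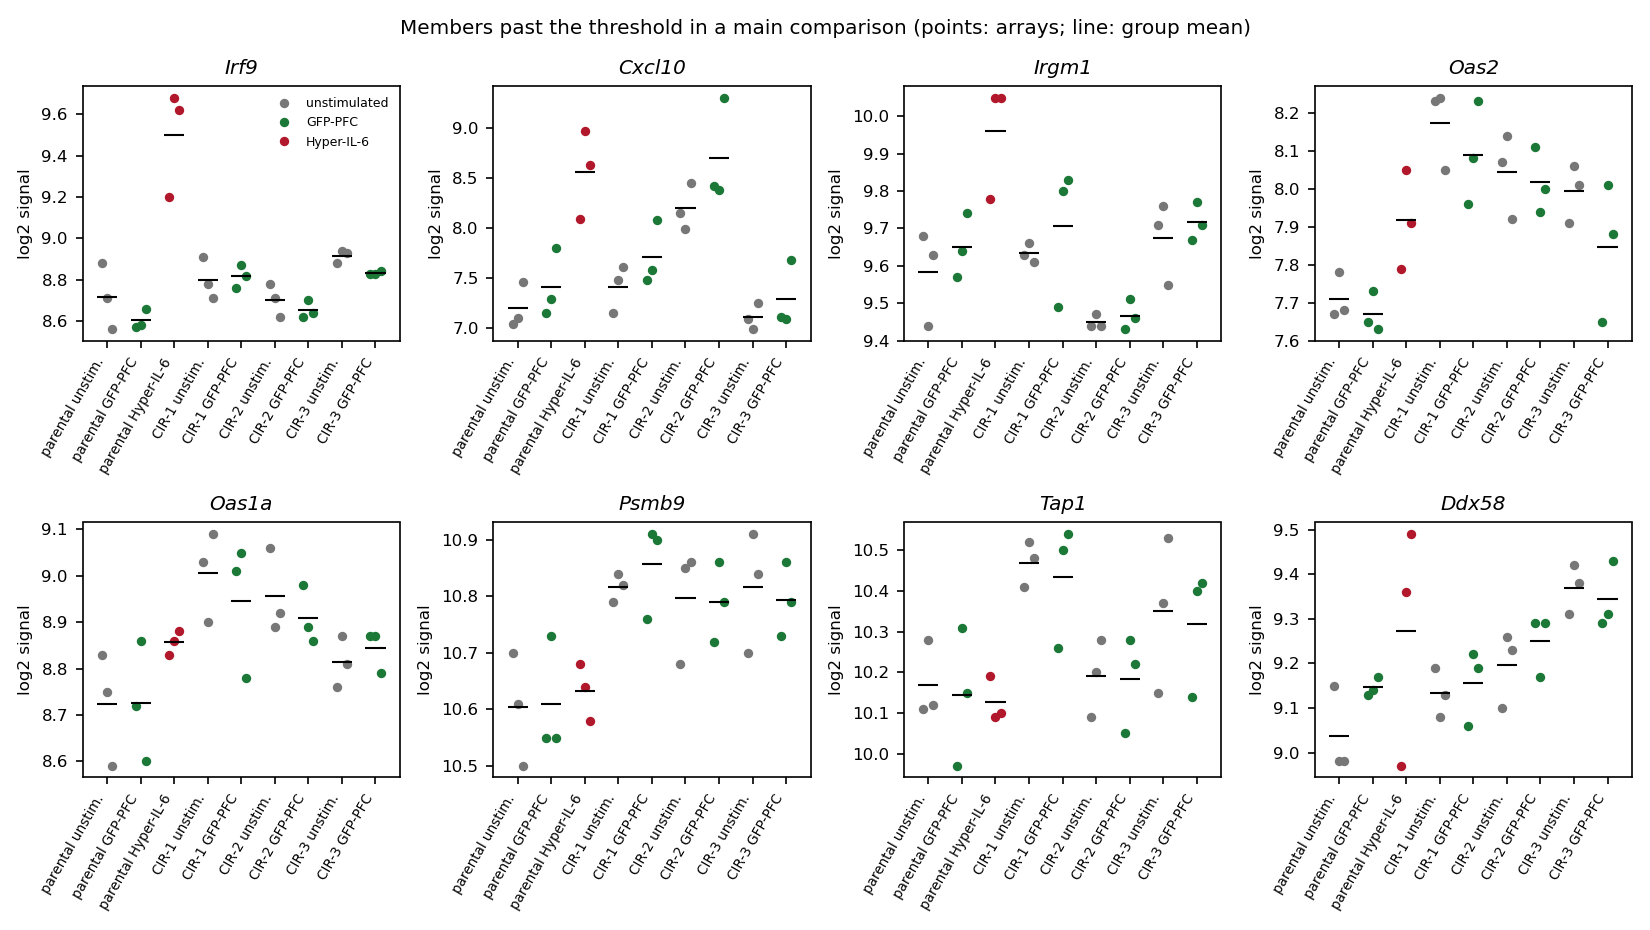
Log2 signal of 8 members in each array, by group, with 1 point per array and a bar at each group mean. Hyper-IL-6 arrays stand above the other parental arrays in Irf9, Cxcl10 and Irgm1, CIR-2 arrays stand highest of the lines in Cxcl10, and CIR-line arrays lie above most parental ones in Oas2.

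GFP-PFC did not move any member past the threshold. As the mean of the 4 lines, 0 of 35 passed limma's test, where 0.221% of all genes did (0.186% higher and 0.0351% lower), and 3 of the 35 had an unadjusted p under 0.05, as did 6.30% of all genes. The median difference was -0.02, against -0.01 for all genes. The 95% interval of a member's difference reached a median of 0.0938 to either side, and from 0.0685 to 0.266 across the members. The test was thus less narrow for the more variable members. The 5 members with the smallest p were Dhx58 (0.11, adjusted p = 0.453), Zbp1 (-0.09, 0.632), Cxcl10 (0.30, 0.641), Ifit1 (0.09, 0.828) and Rsad2 (-0.06, 0.918). With array weights Zbp1 passed as lower (-0.11, adjusted p = 0.0384), and under the other alternatives and with each array left out the count by limma stayed at 0.

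Cxcl10 was higher with GFP-PFC in all 12 pairs of consecutively numbered arrays, by 0.02 to 0.84. The spread was uneven, since the mean over the 4 lines was 0.18 and 0.19 in the pairs numbered 1 and 2 and 3 and 4, and 0.52 in those numbered 5 and 6. In CIR-2 cells, for example, the arrays read 8.15, 7.99 and 8.45 unstimulated and 8.42, 8.38 and 9.30 with GFP-PFC.

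Line by line, no gene at all passed for GFP-PFC by limma in any of the 4 lines. An unadjusted p under 0.05 was found for 3 members in parental cells (3.92% of all genes), for 0 members of CIR-1 cells (2.46%), for 1 member of CIR-2 cells (1.32%) and for 0 members of CIR-3 cells (2.14%). The F-test of a difference in the GFP-PFC response among lines called no gene either, with 0.943% of all genes at an unadjusted p under 0.05. Of 68 further interferon-stimulated genes, none passed. Irf1 was at -0.29 (limma's adjusted p = 0.0717), Socs1 at -0.01 and Socs3 at 0.01.

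The CIR lines differed from parental cells in 6 of the 35 members, and each called member was higher in the CIR line. The values below are means over the unstimulated and GFP-PFC states, 6 arrays of a line against 6 parental arrays. The 3 comparisons share the parental arrays, so they are not independent. CIR-1 had 4 called members (11.4% of 35, against 4.92% of all genes), CIR-2 had 4 (11.4%, against 3.80%) and CIR-3 had 3 (8.57%, against 4.20%). Of all genes, 2.96%, 2.43% and 3.10% were called higher and 1.96%, 1.37% and 1.10% lower. At an unadjusted p under 0.05 there were 8, 5 and 10 members, against 13.3%, 12.3% and 16.4% of all genes. The median differences of the members were 0.04, 0.03 and 0.02. All called members were above background, so 4, 4 and 3 of the 24 members above it were called. Among all genes above background the called share was 7.38%, 5.55% and 6.16%.

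**Figure D4:**
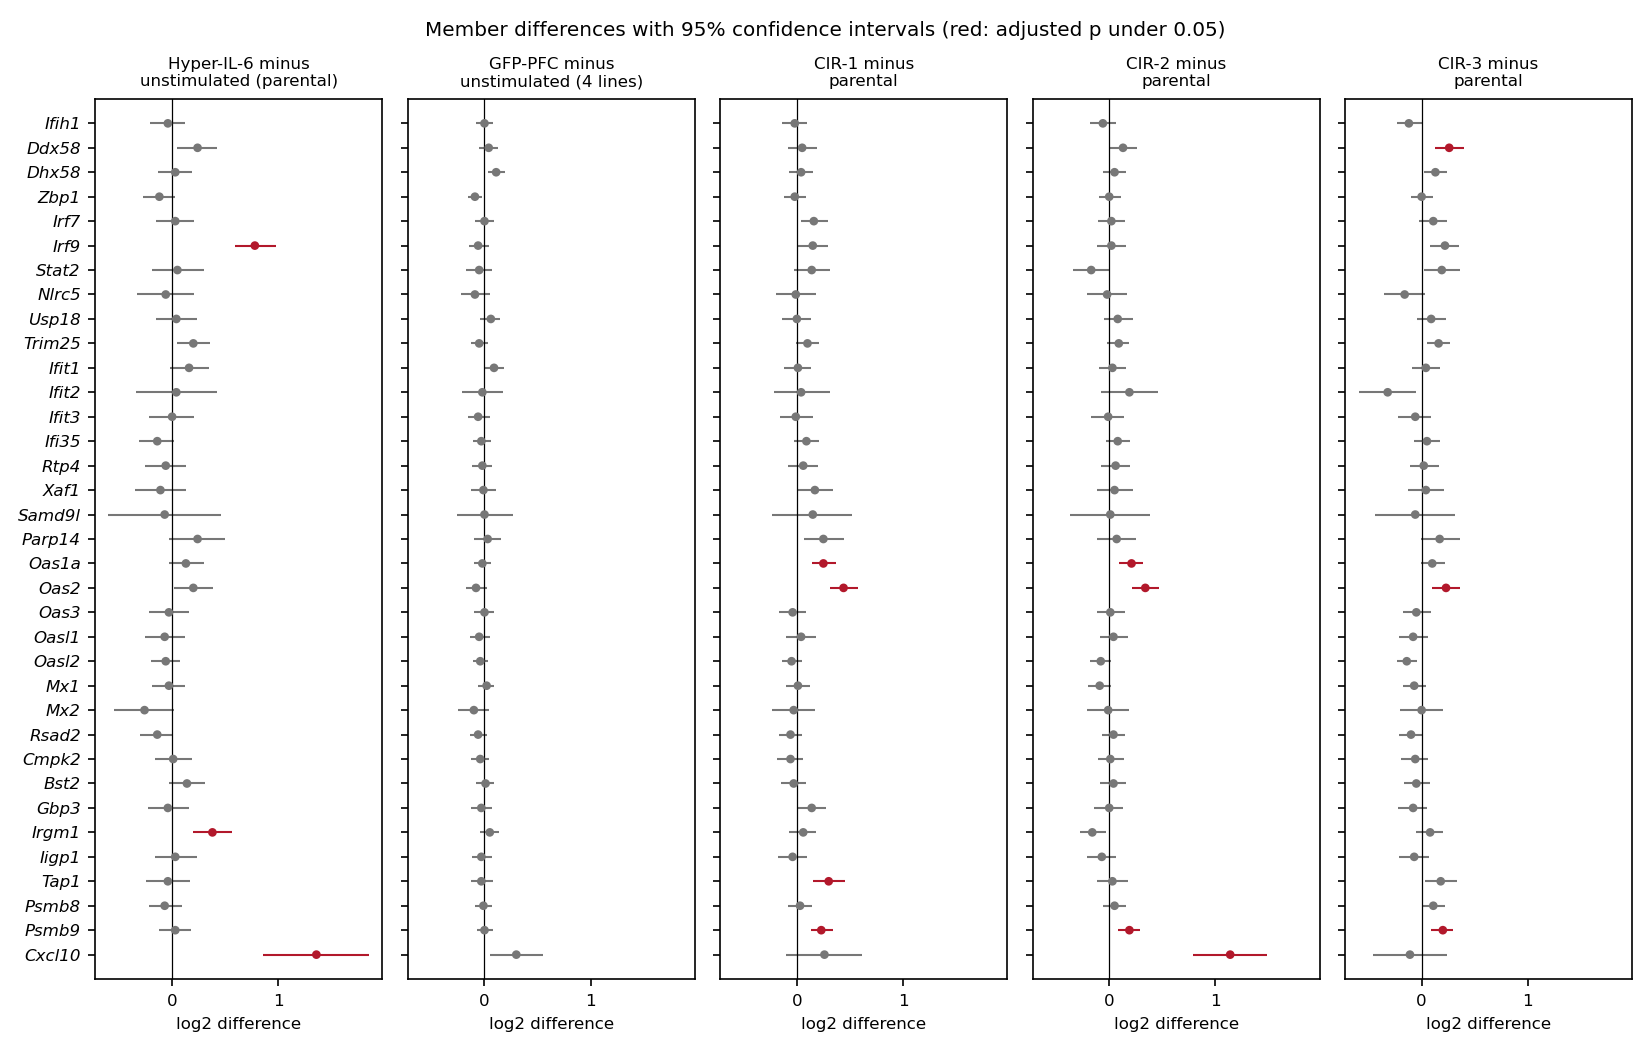
Difference in log2 signal of each of the 35 members in the 5 main comparisons, arranged by role, with 95% intervals from the fit over 27 arrays and red for an adjusted p under 0.05. Most intervals lie within 0.5 of 0, and the called members are Irf9, Cxcl10 and Irgm1 for Hyper-IL-6, none for GFP-PFC, and Oas2, Psmb9, Oas1a, Tap1, Cxcl10 and Ddx58 in the CIR lines.

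Oas2, one of the enzymes that make 2′-5′ oligoadenylate to activate RNase L, was called in all 3 lines. Parental arrays read 7.67, 7.78 and 7.68 unstimulated and 7.65, 7.73 and 7.63 with GFP-PFC. CIR-1 arrays read 8.23, 8.24 and 8.05 unstimulated and 7.96, 8.08 and 8.23 with GFP-PFC, all above every parental array. CIR-2 arrays, at 8.07, 8.14, 7.92, 8.11, 7.94 and 8.00, were likewise all above them. In CIR-3 the unstimulated arrays read 7.91, 8.06 and 8.01, and the GFP-PFC arrays 7.65, 8.01 and 7.88, of which the lowest lay among the parental values. The difference was 0.44 in CIR-1 (SE 0.064, 1.36-fold, limma's adjusted p = 5.42e-05), while CIR-2 gave 0.34 (0.00156) and CIR-3 gave 0.23 (0.0429). The CIR-3 call was lost without the parental GFP-PFC array 2, 4 or 6, the parental unstimulated array 5, or the CIR-3 arrays 3, 4, 5 or 6, with an adjusted p of up to 0.133, and in the fit to the compared groups alone. In the exon-level values the CIR-1 call was kept (0.50, 0.00209), and those of CIR-2 (0.30, 0.112) and CIR-3 (0.30, 0.117) were lost.

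Oas1a, another synthetase of the family, read 8.83, 8.75 and 8.59 unstimulated and 8.72, 8.86 and 8.60 with GFP-PFC in parental cells. CIR-1 arrays read 9.03, 8.90 and 9.09 unstimulated and 9.01, 9.05 and 8.78 with GFP-PFC, 5 of the 6 above every parental array. CIR-2 arrays read 9.06, 8.89, 8.92, 8.98, 8.89 and 8.86. In CIR-1 Oas1a was higher by 0.25 (SE 0.056, 1.19-fold, limma's adjusted p = 0.00619), and in 6 of 6 same-numbered pairs. In CIR-2 it was higher by 0.21 (0.0355), again in 6 of 6. Both calls were lost in the exon-level values (0.10, 0.893 in CIR-1 and 0.15, 0.811 in CIR-2) and in the fit to the compared groups alone. The CIR-2 call was also lost without any 1 of 8 arrays (parental 2, 3, 5 or 6, CIR-2 1, 2, 4 or 5), with an adjusted p of up to 0.123, and without all arrays numbered 1 and 2 (0.19, 0.147). In CIR-3 it was not called. The other 8 members of the OAS, MX, viperin and tetherin group were called in no line.

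Psmb9, an interferon-inducible catalytic subunit of the immunoproteasome, was called in all 3 lines as well. Parental arrays ran from 10.50 to 10.73, CIR-1 arrays from 10.76 to 10.91, CIR-2 arrays from 10.68 to 10.86 and CIR-3 arrays from 10.70 to 10.91. Only CIR-1 did not overlap with parental cells. The differences were 0.23 (SE 0.051, 1.17-fold, limma's adjusted p = 0.00583), 0.19 (0.0395) and 0.20 (0.0237). The CIR-2 call was lost without parental array 2, 3, 5 or 6 or CIR-2 array 3, 4, 5 or 6 (adjusted p of up to 0.121), and the CIR-3 call without parental array 2, 5 or 6 or CIR-3 array 3 or 4 (up to 0.082). Both were lost with quantile normalization and in the fit to the compared groups alone, and the CIR-2 call also with centred arrays and in the exon-level values (0.20, 0.0975). The CIR-1 call was kept in every alternative run.

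Tap1, which carries peptides to MHC class I, passed in CIR-1, and no difference in Tap1 between CIR lines was called. Parental arrays read 10.11, 10.28 and 10.12 unstimulated and 9.97, 10.31 and 10.15 with GFP-PFC, and CIR-1 arrays 10.41, 10.52 and 10.48, and 10.26, 10.50 and 10.54. All but the CIR-1 GFP-PFC array 2 were above every parental array. The difference was 0.30 (SE 0.072, 1.23-fold, limma's adjusted p = 0.0124), and all 13 exon-level probe sets were higher. Without the parental GFP-PFC array 2 the adjusted p was 0.0501. Psmb8, the third member of the antigen processing group at the gene level, was called in no line.

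Cxcl10 was called in CIR-2 alone of the 3 lines. Its CIR-2 arrays read 8.15, 7.99 and 8.45 unstimulated and 8.42, 8.38 and 9.30 with GFP-PFC, all above the parental arrays, which ran from 7.04 to 7.80. The difference from parental cells was 1.14 (SE 0.17, 95% interval 0.79 to 1.49), a 2.20-fold difference, with limma's adjusted p = 0.000121. It was higher in 6 of 6 same-numbered pairs and in 4 of 4 exon-level probe sets, and was 0.99 to 1.24 with any 1 array left out. CIR-1 arrays ran from 7.15 to 8.08 and CIR-3 arrays from 6.99 to 7.68. The differences between CIR lines were tested directly: CIR-2 was above CIR-1 by 0.88 (limma's adjusted p = 0.0045, with 1.44% of all genes called; 0.84, 0.053 without the arrays numbered 1 and 2), and CIR-3 minus CIR-2 was -1.25 (4.61e-05, with 2.33% of all genes called).

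Ddx58 was called in CIR-3 alone. Its CIR-3 arrays read 9.31, 9.42 and 9.38 unstimulated and 9.29, 9.31 and 9.43 with GFP-PFC, and the parental arrays 9.15, 8.98 and 8.98, and 9.13, 9.14 and 9.17. The lowest CIR-3 array was above the highest parental array. The difference was 0.26 (SE 0.064, 1.20-fold, limma's adjusted p = 0.0148), with 19 of 20 exon-level probe sets higher. As the median of those probe sets it was 0.26 too, and did not pass (0.0865). CIR-1 and CIR-2 arrays ran from 9.06 to 9.29, and no difference in Ddx58 between CIR lines was called.

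The count in CIR-3 depended most on the arrays. With the replicate number as a block, 7 members passed, and 1650 of all genes against 837 without the block. The 7 were Ddx58, Oas2 and Psmb9, and also Irf9 (0.22, adjusted p = 0.0419), Stat2 (0.19, 0.0234), Tap1 (0.18, 0.0355) and Trim25 (0.16, 0.0415). The block also added Parp14 in CIR-1 (0.25, 0.0406) and, as a lower value, Stat2 in CIR-2 (-0.17, 0.0499). Without the arrays numbered 1 and 2, 12 members passed in CIR-3, 9 higher and 3 lower, while 4172 of all genes passed against 837 with them. Those higher were Ddx58 (0.32), Oas2 (0.28), Irf9 (0.26), Psmb9 (0.25), Parp14 (0.24), Stat2 (0.22), Tap1 (0.22), Dhx58 (0.21) and Trim25 (0.20). Those lower were Nlrc5 (-0.23), Oasl2 (-0.19) and Oasl1 (-0.18). Leaving out the same arrays added Irf9 in CIR-1 (0.17, 0.0354) and Ddx58 in CIR-2 (0.17, 0.0411). Without the parental unstimulated array 1 alone, 9 members passed in CIR-3, 7 higher and 2 lower. With the parental array 2, 5 or 6 or the CIR-3 array 3 or 4 left out, 1 member passed, and in CIR-2 the count fell from 4 to 2 without parental array 2, 3, 5 or 6 or CIR-2 array 4 or 5.

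Split by state, where the 2 states share no array, the Oas2 difference in CIR-1 was 0.46 unstimulated (limma's adjusted p = 0.0044, with 1.73% of all genes called) and 0.42 with GFP-PFC (0.0106, 1.64%). The first was lost in the exon-level values (0.38, 0.3), and the second without parental array 2 or 6 or CIR-1 array 6. Both were lost in the fit to the compared groups alone. The Cxcl10 difference in CIR-2 was 1.00 unstimulated (0.0383, 1.21%) and 1.28 with GFP-PFC (0.00393, 1.18%). The unstimulated Cxcl10 call was lost without parental array 1 or 3 or CIR-2 array 1, 3 or 5. It was also lost without all arrays numbered 1 and 2 (0.94, 0.0936) and in the exon-level values (0.87, 0.0682). The Cxcl10 call with GFP-PFC was lost without CIR-2 array 6 (0.0569) and in the fit to the compared groups alone. In CIR-3 no member passed by limma in either state, where 1.48% and 1.24% of all genes did, and 7 and 5 members had an unadjusted p under 0.05 (12% and 7.70% of all genes).

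Between CIR lines, the members that differed were mostly those of CIR-3 against CIR-2. Besides Cxcl10, Stat2 was higher in CIR-3 by 0.36 (limma's adjusted p = 0.0187), Irgm1 was higher by 0.24 (0.0387) and Ifit2, which binds viral RNA and restricts translation, was lower (-0.51, 0.0347). These 3 calls stood near the threshold. With each of the 12 arrays left out in turn, Stat2 passed in 6 (lost without CIR-2 array 3, 4, 5 or 6 or CIR-3 array 1 or 6, adjusted p of up to 0.0625). Ifit2 passed in 3 (lost without any CIR-2 array or CIR-3 array 1, 5 or 6, up to 0.121), and Irgm1 passed in 1 (kept only without CIR-3 array 5, up to 0.105). With quantile normalization and in the exon-level values Ifit2 (-0.49, 0.127 in the latter) and Irgm1 (0.16, 0.393) were lost, and Ifit2 also with centred arrays. Stat2 read 9.78, 9.41 and 9.50 unstimulated and 9.51, 9.41 and 9.57 with GFP-PFC in CIR-3, and 9.38, 9.13 and 9.11, and 9.25, 9.07 and 9.10 in CIR-2, without overlap. Ifit2 read 7.47, 7.78 and 7.34, and 7.52, 7.65 and 7.19 in CIR-3, all below the CIR-2 arrays, which ran from 7.88 to 8.09. In parental cells, by contrast, the unstimulated Ifit2 arrays spread over 8.35, 7.46 and 7.54. Against CIR-1, CIR-3 had no called member by limma (6 at an unadjusted p under 0.05, against 13.3% of all genes, with 2.80% of all genes called). In the F-test among all 4 lines, 2 members passed, Cxcl10 (limma's adjusted p = 0.000563) and Oas2 (0.0021), where 4.03% of all genes did.

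The 5 members read at the exon level included Ifi47, which differed from parental cells in every CIR line. Here a gene's value is the median of its exon-level probe sets, tested over 20416 genes. Ifi47 encodes an interferon-inducible GTPase. Its parental arrays read 7.92, 7.03 and 7.18 unstimulated and 8.00, 7.59 and 7.62 with GFP-PFC. CIR-1 arrays read 9.70, 9.61 and 9.38, and 9.37, 9.96 and 9.72, and CIR-2 arrays 9.10, 9.43 and 9.14, and 9.34, 9.40 and 9.27. CIR-3 arrays read 8.79, 8.87 and 8.16, and 8.33, 8.97 and 8.35. Every CIR array was above every parental array. The differences were 2.06 (limma's adjusted p = 1.64e-08), 1.72 (3.9e-07) and 1.02 (0.000513), and each call was kept with any 1 of its 12 arrays left out. Split by state, CIR-1 and CIR-2 passed in both states. CIR-3 passed unstimulated (1.23, 0.00662, with 0.936% of all genes called) and not with GFP-PFC (0.81, 0.16, 0.882%). Background at the exon level, described with Isg15 below, was 7.20. The unstimulated parental arrays lay on both sides of it, so these sizes are against values near background.

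Both exon-level probe sets of Ifi47 moved the same way, by 1.94 and 2.19 in CIR-1, 1.59 and 1.85 in CIR-2 and 0.91 and 1.13 in CIR-3. CIR-3 minus CIR-1 was -1.04 (limma's adjusted p = 0.000496, with 1.87% of all genes called), CIR-3 minus CIR-2 was -0.70 (0.0341, 1.32%) and CIR-2 minus CIR-1 was -0.34 (0.752, 0.936%). Hyper-IL-6 arrays, at 7.04, 7.62 and 7.90, lay within the parental range. Ifi47 sits among related GTPase genes and its gene-level probe set carried several symbols, so signal shared between near-identical genes was not told apart here.

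Igtp, a GTPase of the same family, was called in CIR-1 (0.72, limma's adjusted p = 0.0246) and not in CIR-2 (0.47, 0.244) or CIR-3 (0.62, 0.0687), with all 4 probe sets higher in each line. No difference in Igtp between CIR lines was called. The CIR-1 call was lost without parental array 3, 4, 5 or 6 or CIR-1 array 1, 3 or 4, with an adjusted p of up to 0.088, and with the replicate block the CIR-3 difference passed (0.0266).

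Isg15, the ubiquitin-like modifier, was called in CIR-3. Its CIR-3 arrays read 7.58, 7.52 and 7.34 unstimulated and 7.26, 7.68 and 7.37 with GFP-PFC, all above the parental arrays at 6.73, 6.71 and 6.73, and 6.93, 6.98 and 6.71. Background at the exon level, set in the same way from 982 olfactory receptor genes, was 7.20, and all parental arrays lay below it. The difference passed (0.66, limma's adjusted p = 0.00264), but its size is against values not above background. It was 0.31 (0.265) in CIR-1 and 0.20 (0.638) in CIR-2. No difference in Isg15 between CIR lines was called, at 0.35 (0.251) for CIR-3 minus CIR-1 and 0.46 (0.0833) for CIR-3 minus CIR-2. Split by state, the CIR-3 difference from parental cells passed unstimulated (0.75, 0.0399) and not with GFP-PFC (0.56, 0.229). The 3 Isg15 probe sets did not move together in CIR-3, at 0.66, 0.22 and -0.23. Their means over all arrays were 7.05, 8.37 and 5.17, so the median follows the first, and the call rests on that probe set. Gbp2 and Ifi44, with means of 5.81 and 6.2 below that background, were called in no line. Of these 5 members, 2 were thus called in CIR-1 (with 2.82% of all genes at the exon level), 1 in CIR-2 (2.23%) and 2 in CIR-3 (2.49%). For Hyper-IL-6 (0.456%) and GFP-PFC (0.122%) limma called none, and none had an unadjusted p under 0.05.

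**Figure D5:**
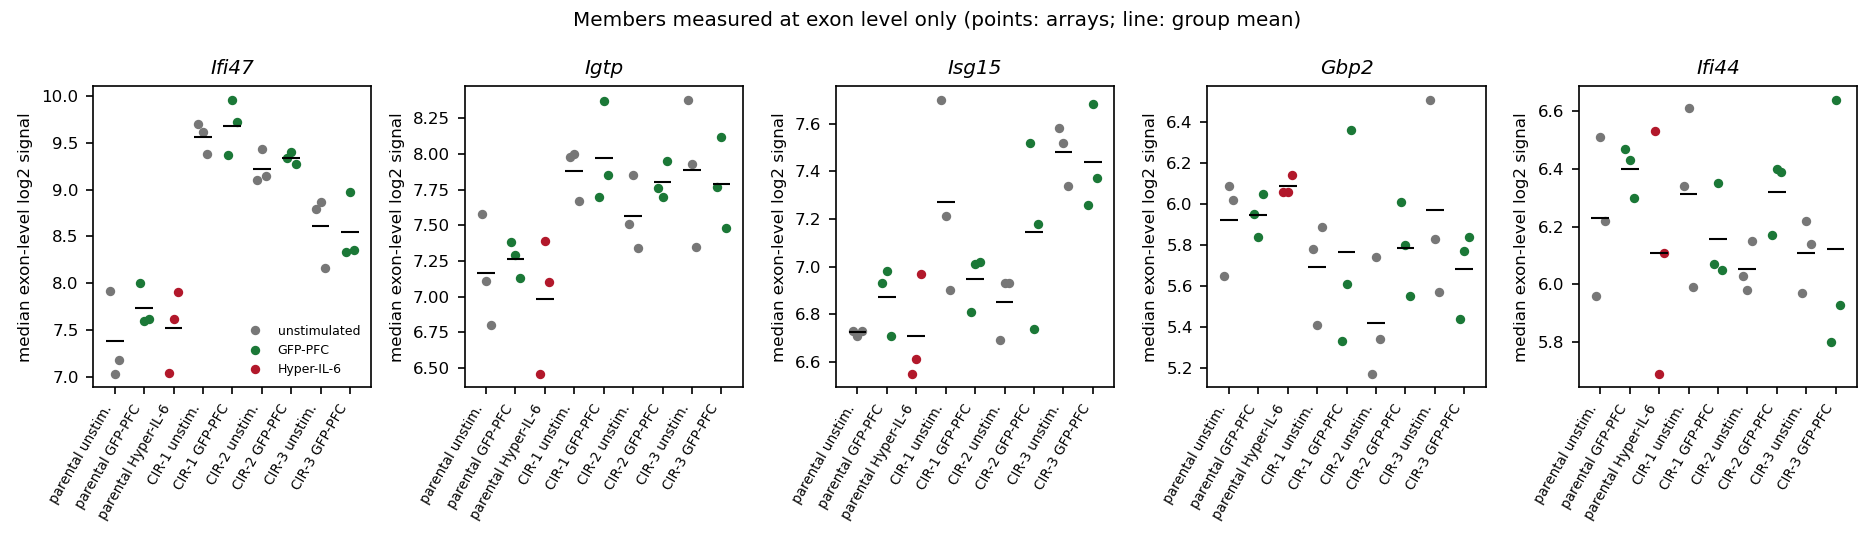
Log2 signal of Ifi47, Igtp, Isg15, Gbp2 and Ifi44 in each array, by group, as the median of the gene's exon-level probe sets, with a bar at each group mean. In Ifi47 every CIR array lies above every parental array.

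Nlrc5 shows that 1 value per gene can leave signal out. It had 19 gene-level probe sets, and the one standing for the gene was not called in any of the 5 main comparisons. With every probe set tested by itself, CIR-1 had 7 of the 19 called higher, CIR-2 had 2 and CIR-3 had 2, where 4.74%, 3.63% and 4.22% of all probe sets of 1 symbol were called. In CIR-1, 17 of the 19 were higher, with a median of 0.18. Limma called none of the 19 for Hyper-IL-6 or GFP-PFC.

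Further interferon-stimulated genes called in the CIR lines were mostly higher there. Of 68 measured, 11 were higher and 1 lower in CIR-1. The counts were 5 higher and 2 lower in CIR-2, and 4 higher and 1 lower in CIR-3. Of all genes, 2.96%, 2.43% and 3.10% were called higher in these lines, and 1.96%, 1.37% and 1.10% lower. Ube2l6, the conjugating enzyme for ISG15, was higher in all 3 (0.45, 0.58 and 0.34). Herc6, the mouse ligase for ISG15, was higher in CIR-1 (0.59) and CIR-3 (0.65), and Uba7, its activating enzyme, in CIR-2 (0.63) and CIR-3 (0.25). Cxcl11, a chemokine that shares its receptor with CXCL10, was higher in CIR-2 (0.78). Its mean over all arrays, 7.11, was below background, with group means from 6.77 to 7.72, so this size is against values near background. Il15 was lower in CIR-1 (-1.04), and Lgals9 was lower in CIR-2 (-0.48) and CIR-3 (-0.71).

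Upstream of these genes, no interferon ligand passed in any CIR comparison by limma, of 15 measured, with 1, 0 and 1 at an unadjusted p under 0.05. Of the 15, 4 were above background (Ifna2, Ifna5, Ifnz and Ifnl2). All 9 receptor and kinase genes were above it. Of these Ifnar2, a chain of the type I interferon receptor, was lower in CIR-1 (-0.15, limma's adjusted p = 0.0348), and none passed in CIR-2 or CIR-3, with 1 and 3 at an unadjusted p under 0.05. Sting1, the adaptor of cytosolic DNA sensing, was lower in CIR-1 (-0.74) and CIR-2 (-0.73). Irf2 was higher in CIR-1 (0.31) and CIR-3 (0.34).

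Some markers of other cell types differed between lines. Fcer1a, which encodes the IgE-binding chain of a receptor on mast cells and basophils, had a mean of 9.09 unstimulated and 9.37 with GFP-PFC in parental cells, and group means from 4.87 to 5.15 in the CIR lines. Hdc was lower in CIR-1 (-0.77) and CIR-2 (-0.86), and Ms4a2 was higher in CIR-3 (0.59). Of the macrophage markers, Lyz2 was lower in CIR-1 (-0.25) and CIR-3 (-0.91), and Fcgr1 was higher in CIR-1 (0.65) and CIR-2 (0.43). Of the 10 mast cell and basophil markers, 3 were above background by their mean over all arrays (Ms4a2, Gata2 and Hdc), and Cpa3, Cma1 and the tryptases Tpsb2 and Tpsab1 were not. The log2 of the summed signal of the 10 lay between 13.21 and 13.45 in the parental arrays and between 13.33 and 13.80 in the CIR arrays. That of the 17 pro-B markers lay between 13.78 and 13.88, and between 13.68 and 14.00. The first sum rests mostly on Gata2 (mean 13.26) and the second on Spi1 (12.40) and Ptprc (12.30). Changes in weaker markers such as Fcer1a hardly show in such sums. The part of these markers in the differences of the members was not tested.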

How the data were processed

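RNA of 27 samples was hybridised to Affymetrix arrays. The gene-level and exon-level values, taken as log2, were deposited by the authors as Affymetrix Expression Console wrote them, per the labels. The algorithm, normalization and log base are not given in the sources used here, and gene-level values ran from 2.97 to 14.86. A platform annotation gave 1 symbol to 21789 of 35556 gene-level probe sets, several to 1621 and none to 12146. For 999 genes with several probe sets, 1 was kept by the highest mean. The members and lists were chosen with earlier results of these data known.

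One mean per group was fitted over all 27 arrays with limma 3.58.1 in R 4.3.3, with Benjamini-Hochberg adjustment over 19938 genes and a threshold of 0.05. The fit was tested on simulated data. Every member is accounted for. Those called in a main comparison or among lines are given by array, called genes of other lists by size, up to 6 a comparison, with Irf1, Socs1 and Socs3 always allowed. Other values were chosen after they were seen.

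The labels' array numbers were checked for pairing. Deviations of consecutive unstimulated and GFP-PFC arrays of a line correlated at 0.282 to 0.633 in 12 of 12 pairs, and those of same-numbered arrays across lines at 0.137 or more in 18 of 18 unstimulated and 18 of 18 GFP-PFC pairs. Hyper-IL-6 arrays were not paired (-0.463 to -0.201). Alternatives were a replicate block, other scalings, array weights, a filter at background, exon-level values, a fit to the compared groups alone, and arrays left out. Exon-level fits with a block or arrays left out were added after the data were seen.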

Additional observations from a re-analysis of the deposited data

How the results depend on the processing

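The count of called members is small, so 1 gene moves it by much. For Hyper-IL-6 (3 members) it was 11 with array weights, 10 without the arrays numbered 1 and 2, and 0 in a fit to the compared groups alone. For GFP-PFC (0 members) it was 1 with array weights. For CIR-2 (4 members) it was 7 with array weights, 1 in the exon-level values and 2 in the fit to the compared groups alone. For CIR-3 (3 members) it was 7 with the replicate block, 11 with array weights, 12 without the arrays numbered 1 and 2, and 1 both in the exon-level values and in the fit to the compared groups alone. Counts of all genes rose too. With array weights 3466 genes passed for Hyper-IL-6 (155 in the main fit) and 1071 for GFP-PFC (44). For CIR-2 array weights gave 1897 (758), and for CIR-3 4248 (837). Without the arrays numbered 1 and 2, 3673 genes passed for Hyper-IL-6 and 4172 for CIR-3. With each array left out in turn the member count was 2 to 5 for Hyper-IL-6, 0 to 0 for GFP-PFC, 3 to 4 for CIR-1, 2 to 4 for CIR-2 and 1 to 9 for CIR-3. The count of all genes was then 79 to 250 for Hyper-IL-6 and 654 to 2009 for CIR-3. With 3-base spacing the ISRE core was in 6 members rather than 15. The cause of these shifts was not tested, except that the fit to the compared groups alone has fewer arrays. No called member changed direction in any alternative run. Beside the calls named with the replicate block in the report, the block changed no call of a main comparison. Signals below background, as in 11 of the 35 members, limit what a difference in them can show, and 3 arrays a group limit the precision.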
